A study of Rattus norvegicus with 3 samples.

Results

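The genes of heterotrimeric G protein subunits and of RGS proteins (regulators of G protein signalling) were examined in single cell bodies of rat hippocampal neurons. Members were probe sets that carry exactly 1 gene symbol and whose symbol follows a fixed pattern, Gna, Gnb, Gng or Rgs with the letter or digit of a family member. The pattern found 72 probe sets of 47 genes, out of 20832 single-symbol probe sets of 14218 genes. They comprise 14 alpha, 6 beta and 9 gamma genes and 18 Rgs genes. Of these, 45 encode a subunit or an RGS protein. The other 2, Gnb1l and Rgs7bp, entered by their symbol: Gnb1l encodes a WD repeat protein that resembles G beta, and Rgs7bp encodes a membrane anchor of some RGS proteins. Gna13, Gnai3, Gng4, Rgs11, Rgs13, Rgs20 and Rgs21 had no probe set that the rule takes and were not analysed here.

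The series holds 3 Affymetrix arrays in 1 group and no second condition, so it shows where these genes stood in a soma and how far single somata differed. Each array was made from the soma of 1 neuron that the labels call pyramidal, cut out with a glass pipette. The neurons came from hippocampi of embryonic day 19 Sprague-Dawley rats, grew for 14 days in dispersed primary culture and received no treatment. The labels number the replicates, and the somata keep these numbers here as cells 1, 2 and 3. No animal or dish is named, and with so few arrays their number bounds the precision.

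In textbook terms, a G protein waits at the inner face of the membrane as an alpha, a beta and a gamma subunit. A receptor that binds its transmitter loads GTP onto alpha, and alpha and the beta-gamma pair then act on separate targets. Gs alpha stimulates and Gi alpha restrains adenylyl cyclase, Gq alpha activates phospholipase C beta, and beta-gamma opens GIRK potassium channels. RGS proteins speed GTP hydrolysis on alpha and so end the signal. In hippocampal pyramidal neurons these routes carry the effects of acetylcholine, monoamines, adenosine, GABA at its metabotropic receptor and glutamate at its metabotropic receptors.

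Levels are log2 intensities as deposited, and the level of a gene is the median of its probe sets. The percentile of a gene is its rank among the 14218 genes of the same array, and since probe sets differ in affinity it does not order transcripts by amount. A gene is said to be above background where its log2 level exceeded the 95th percentile of 164 genes not expected in neurons (29 chemosensory receptor genes and 135 genes of other organs). That level was 9.58, 10.03 and 9.45 log2 in cells 1, 2 and 3. Neuronal markers were mixed. Of 7 pyramidal neuron markers, Neurod2 and Nrgn were above background in all 3 cells and 4 (Camk2a, Grin2b, Slc17a7 and Emx1) in none. Of 8 general neuronal markers, Mapt was above it in all 3 cells and 4 (Rbfox3, Tubb3, Map2 and Syt1) in none. Of 8 interneuron markers, 1 was above background in each cell, with a median percentile of 49.5, 63.0 and 35.7. It was Calb2 in cells 1 and 3 and Vip in cell 2. Of 5 oligodendrocyte markers, 1 (Sox10) was above background in cell 2 and 0 in cells 1 and 3. Their median percentile was 51.6, 77.9 and 66.0. Of 7 microglial markers, 4 were above background in cell 1 and 0 in cells 2 and 3, with a median percentile of 97.0, 50.3 and 28.3. Of 6 astrocyte markers, 2 were above it in cell 1 and 0 in cells 2 and 3, with a median percentile of 78.6, 41.4 and 42.6. Cell 1 also differed in the 3' to 5' difference of the Gapdh control probe sets, which was 0.20 log2 there against 3.06 and 2.93 in cells 2 and 3. The part of these features in the values below was not tested.

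As a family, the members stood in the middle of the arrays. Their median percentile was 48.9, 57.8 and 46.6 in cells 1, 2 and 3, or 51.1 ± 5.96 (SD, n = 3 cells), where the median of all genes is 50 by construction. Above background were 3 members in cell 1, 1 in cell 2 and 4 in cell 3, while 8.0%, 5.71% and 10.6% of all genes passed there. In total 7 of 47 members were above background in 1 or more cells, against 16.7% of all genes. These were Gnao1, Gnb1l and Rgs22 in cell 1, Gng11 in cells 2 and 3, and Gnai2, Gng10 and Rgs10 in cell 3. No member was above background in all 3 cells, where 2.17% of all genes were. The other 40 members were not above background in any soma. At the 99th percentile of the background genes, 0 members were above it in any cell. With the 29 receptor genes alone as background 4, 9 and 5 members passed in cells 1, 2 and 3, and with the brightest probe set of each gene 5, 3 and 10 passed, of which 2 in all cells. The shares of all genes that passed in these settings are not given, so these counts have no reference.

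No class of the family was set apart from the others in every soma. The median percentile was 51.9 ± 9.51 for the alpha genes, 63.1 ± 8.48 for the beta genes, 54.2 ± 8.81 for the gamma genes and 48.4 ± 6.85 for the Rgs genes (SD, n = 3 cells). Beta minus RGS was 21.2, -2.53 and 25.6 percentile points in cells 1, 2 and 3, a mean of 14.7 ± 15.1. This mean was 9.31 to 23.4 when 1 cell was left out, 8.01 without the 2 genes taken by symbol only, 6.23 when single probe sets were ranked and 0.641 over genes with 1 probe set. Among the 6 pairs of classes, 2 differences had the same sign in every cell. Gamma minus RGS was 8.11, 7.58 and 1.84 points, and alpha minus gamma was -0.223, -2.55 and -4.28 points. Both of these changed sign with the brightest probe set of each gene, to -3.21 for gamma minus RGS and 5.43 for alpha minus gamma. A total of 13 members lay over the 50th percentile in all 3 cells, 11 lay under it in all 3 and 23 lay on different sides of it in different cells. Of all genes, 26.4% lay over it and 25.0% under it in every cell.

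**Figure D1:**
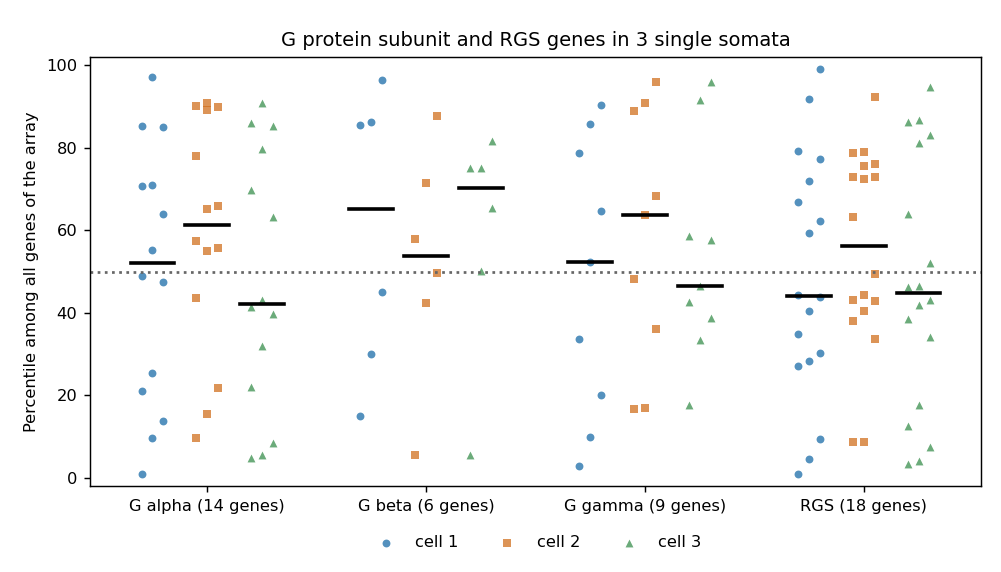
Percentile of each member gene among all genes of its array (vertical axis) for the 4 classes (horizontal axis), as circles for cell 1, squares for cell 2 and triangles for cell 3, where black bars are class medians and the dotted line is the 50th percentile. The points of each class are spread widely, and the class medians lie between 42.3 and 70.3.

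Among the alpha genes, the Gi/o family held both the highest and the lowest median percentiles. Gnai2, an inhibitory alpha subunit found in most cell types, read 8.04, 9.41 and 9.65 log2 in cells 1, 2 and 3, at percentiles of 71.0, 90.2 and 90.9. Gnao1, the Go alpha subunit that is abundant in neuronal membranes, read 10.68, 9.30 and 8.57 log2, at percentiles of 97.1, 89.3 and 79.8. Both genes stood high in every soma, in opposite order: Gnai2 was lowest and Gnao1 highest in cell 1. Gnaz, a neuronal alpha of the Gi/o family that resists pertussis toxin, lay at 85.1, 66.0 and 85.2. Gnai1, another inhibitory alpha that brain expresses, lay at the far end with percentiles of 21.0, 9.66 and 5.44. Its near relative Gnai3 shares 2 probe sets with Gnai1, which carry 2 symbols and were left out, and these read 8.48, 7.60 and 4.48 log2 and 4.71, 6.40 and 5.86 log2. The transducins and gustducin, alpha subunits of photoreceptors and taste cells, ranked high in single somata, though none was above background in any soma. Gnat2 (cones) lay at 90.9 in cell 2 against 55.2 and 39.8 in cells 1 and 3, Gnat1 (rods) at 78.2 in cell 2 against 9.71 and 8.40, and Gnat3 (taste cells) at 85.4 in cell 1 against 15.5 and 4.78.

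Promoter sequences of 2 Gi/o genes are shown because the family holds both a gene used widely in brain and one that is confined to few sensory cells. RefSeq promoter windows (250 bases before to 50 after the start, assembly GRCr8) were found for 39 member genes, with 41 windows. The full cAMP response element TGACGTCA, the site of CREB and searched for on both strands, is in 1 of these windows, that of Gnao1 (2.44%), and in 1.83% of all 33469 windows. Below are the 130 bases before the start of Gnao1 (chr19:11198438-11198567) and of Gnat3 (chr4:18104333-18104462), both on the minus strand and written 5′ to 3′, with the element in capitals.
Gnao1: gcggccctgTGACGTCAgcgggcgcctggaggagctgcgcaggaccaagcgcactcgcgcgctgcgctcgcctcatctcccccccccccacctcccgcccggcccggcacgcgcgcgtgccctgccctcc
Gnat3: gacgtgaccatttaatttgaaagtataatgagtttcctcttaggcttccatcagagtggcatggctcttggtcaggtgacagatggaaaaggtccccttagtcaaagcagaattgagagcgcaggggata
The element of Gnao1 begins 121 bases before the start. G and C make up 79.2% of the stretch of Gnao1 and 45.4% of that of Gnat3. Over whole windows the median was 62.3% in the members and 51.7% in all genes, with 64.2% for the members known from neurons (22 windows) and 46.8% for those known from other tissues (8 windows). A match to these letters is a description of the window and shows no binding.

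Of the alpha genes of the other families, 1 stood high in each soma. Gna15, a Gq family alpha of blood cells, lay at 70.9, 89.9 and 86.1. It was measured with 1 probe set and was not above background in any soma. Its relatives did not stand as high: Gnaq, the main Gq alpha of brain, lay at 0.967, 21.7 and 32.0, Gna11 at 13.9, 65.2 and 43.1, and Gna14 at 25.5, 55.7 and 22.1. Of these 4 genes, 3 were lowest in cell 1, and Gna14 was lowest in cell 3. The 2 probe sets of Gna14 disagreed, with 6.57, 9.96 and 5.31 log2 and 6.20, 4.90 and 6.80 log2, so its place and order rest on their median. Gnas, which encodes Gs alpha, lay at 64.0, 57.4 and 41.4, and Gnal, the Gs-like alpha of olfactory and striatal neurons, at 47.5, 43.7 and 69.9. Gna12 lay at 48.9, 55.1 and 63.2, a median of 2 probe sets that read far apart.

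Beta genes gave the highest mean of the class medians, which rested on 6 genes. Gnb2, a widely expressed beta subunit, read 7.10, 9.15 and 8.69 log2, at percentiles of 45.0, 87.9 and 81.6. Gnb1, the most abundant beta of many tissues, lay at 85.6, 57.8 and 50.1, and Gnb3, a beta subunit of cones, at 86.3, 71.6 and 65.5. By these medians Gnb1 and Gnb3 were highest in cell 1 and lowest in cell 3, and Gnb2 was lowest in cell 1. The brightest probe set of Gnb1 had the reverse order, highest in cell 3 and lowest in cell 1. Gnb4 lay at 15.1, 49.7 and 75.1. Gnb5, the divergent beta that pairs with the R7 group of RGS proteins in place of a gamma subunit, lay at 30.2, 42.4 and 75.1. The WD repeat gene Gnb1l read 10.41 log2 in cell 1 and 5.05 and 4.98 log2 in cells 2 and 3, a range of 90.9 percentile points. This was the widest range of all members, from a single probe set.

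Among the gamma genes, the highest median percentiles were those of Gng11, Gng8 and Gng10 and the lowest those of Gng2 and Gng3. Gng11, a farnesylated gamma subunit found in many tissues outside the brain, read 8.89, 10.33 and 9.74 log2 at percentiles of 85.8, 95.9 and 91.6, the highest median percentile of all members. This place rests on the median of 2 probe sets whose means lay 4.80 log2 apart. Gng10 lay at 78.7, 88.9 and 95.9, and Gng8, known from olfactory and vomeronasal neurons, at 90.5, 91.0 and 57.8. Gng3, a gamma subunit largely restricted to neurons, read 5.54, 5.87 and 6.54 log2 at percentiles of 9.86, 17.0 and 33.4. Gng2, which is widespread in brain, was as low, with 4.84, 5.87 and 6.76 log2 and percentiles of 2.83, 16.8 and 38.8. The 2 probe sets of Gng2 diverged: 1 read 4.66, 7.16 and 8.46 log2 and the other 5.02, 4.58 and 5.05 log2, so its low place rests on their median. The other gamma genes had median percentiles between these groups. Gng7, which works with Gs-like alpha subunits in the striatum, lay at 64.6, 63.9 and 58.7, and Gng12 at 52.3, 68.3 and 46.6. Gng13, of taste cells and olfactory neurons, lay at 20.0, 48.2 and 42.6, and Gng5 at 33.7, 36.1 and 17.6.

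**Figure D2:**
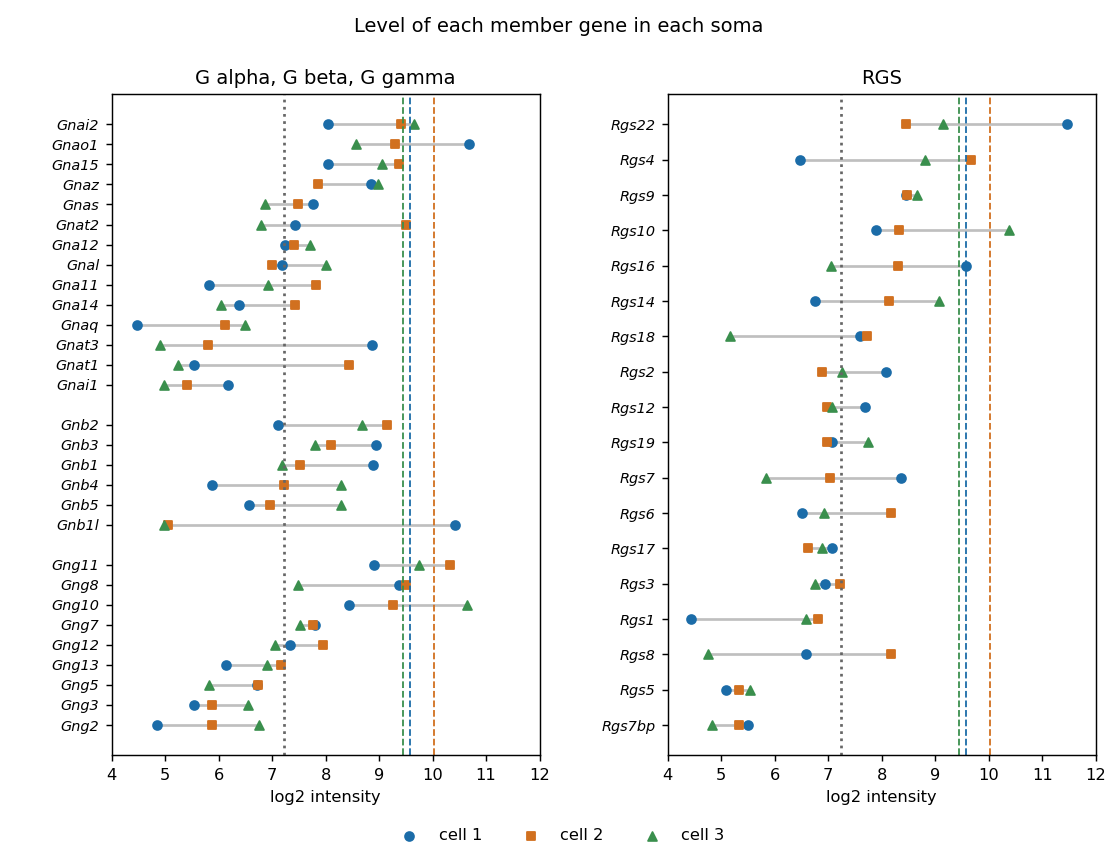
Level of each member gene (rows, log2 intensity on the horizontal axis) in cell 1 (circles), cell 2 (squares) and cell 3 (triangles), ordered by median percentile within each class, where dashed lines in the colour of a cell mark its background, at 9.58, 10.03 and 9.45 log2, and the dotted line is the mean over the cells of the median level of all genes. Symbols to the right of their own dashed line are those of Gnai2, Gnao1, Gnb1l, Gng11, Gng10, Rgs22 and Rgs10.

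RGS proteins are grouped by their domains, and the small R4 group, which acts mostly on Gi/o and Gq alpha subunits, had a median percentile of 42.6 ± 11.8 (SD, n = 3 cells) over 8 genes. Rgs4, a brake on Gi/o and Gq signals that is abundant in forebrain neurons, led it in cells 2 and 3 with percentiles of 92.2 and 83.2, and stood at 27.2 in cell 1. Rgs16 ran the other way, at 92.0, 75.7 and 46.3, and its 9.57 log2 in cell 1 was just under background. Rgs2, an activity-regulated gene whose product acts on Gq alpha, lay at 72.0, 40.5 and 52.1, and Rgs8, best known from Purkinje cells, at 30.4, 73.1 and 3.46. Thus 3 of these 4 genes spanned over 45 percentile points between somata. Rgs3 stayed within 38.5 and 49.3. Members of this group known from blood and vessels were low or variable: Rgs1, a lymphocyte gene, lay at 0.851, 38.1 and 34.1, Rgs18, a platelet gene, at 59.4, 63.2 and 7.48, and Rgs5, a marker of pericytes, at 4.70, 8.63 and 12.7.

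The R7 group, whose proteins bind Gnb5 and act on Gi/o alpha subunits, had a median percentile of 77.3, 72.9 and 43.1 over 3 genes. Rgs9, known from the striatum and from photoreceptors, read 8.46, 8.47 and 8.65 log2 at percentiles of 79.2, 78.9 and 81.1, the narrowest range of all members. Rgs7, a neuronal member, lay at 77.3, 44.3 and 17.6, and Rgs6 at 28.3, 72.9 and 43.1. Their membrane anchor Rgs7bp read low throughout, at 5.50, 5.34 and 4.83 log2 and percentiles of 9.38, 8.63 and 4.10. The R12 group had the highest mean of the medians of the RGS groups, 73.6 ± 12.1 (SD, n = 3 cells, 3 genes). In it, Rgs14, which in the rodent hippocampus is enriched in CA2 pyramidal neurons, lay at 34.8, 72.4 and 86.3, and Rgs10, found in neurons and microglia, at 66.9, 76.2 and 94.8. Both were highest in cell 3 and lowest in cell 1. Rgs12 lay at 62.2, 43.0 and 46.6. In the RZ group, Rgs19 lay at 44.3, 43.1 and 64.0 and Rgs17, measured with 5 probe sets, at 44.0, 33.7 and 42.0. Rgs22, a large RGS protein of testis that belongs to none of these groups, read 11.46, 8.46 and 9.15 log2 and had the highest median percentile of the Rgs genes, with 99.1, 78.7 and 86.9.

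How firmly a gene is placed depends on its probe sets. Of the 47 members, 18 had 2 or more. In 4 of these (Gna12, Gnb2, Gnb3 and Rgs3) the highest and the lowest probe set lay 50 or more percentile points apart. The share of all genes with such a gap is not given, so this count has no reference. This gap was taken between median percentiles over the cells, so it can miss probe sets that disagree in single cells, such as those of Gna14. The probe sets of the 13 members with exactly 2 differed by a median of 1.5 log2, against 1.22 log2 for the 3060 such genes of the whole array. Gng11 showed the widest gap: 1 probe set read 11.79, 12.10 and 12.28 log2 and the other 6.00, 8.57 and 7.21 log2. The brighter of them was above background in every soma, as was 1 probe set of Gnb3, with 11.34, 10.31 and 9.71 log2. Thus 2 of 72 member probe sets were above background in all 3 cells, against 2.84% of all single-symbol probe sets. The second probe set of Gnb3 read 6.54, 5.90 and 5.90 log2. Gnb1 had 1 bright probe set, with 9.23, 10.17 and 11.22 log2, and 2 others of which the dimmer averaged 7.29 log2, so this probe set was highest in cell 3 while the gene's median was highest in cell 1. Gnb2 likewise had a probe set that read 7.92, 10.81 and 10.58 log2 beside another at 6.28, 7.50 and 6.80 log2. The probe sets of Gna12 read 9.02, 9.52 and 9.85 log2 and 5.45, 5.31 and 5.57 log2, a gap of 4.02 log2 between their means that was far wider than the spread between cells of either. The 2 probe sets of Rgs4 disagreed on which soma was highest, with 7.26, 8.91 and 10.35 log2 and 5.68, 10.45 and 7.28 log2. For Rgs3 the probe sets read 8.89, 6.63 and 8.59 log2, 6.94, 8.95 and 6.75 log2, and 5.98, 7.21 and 5.93 log2. What makes the probe sets of 1 gene differ was not tested.

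**Figure D3:**
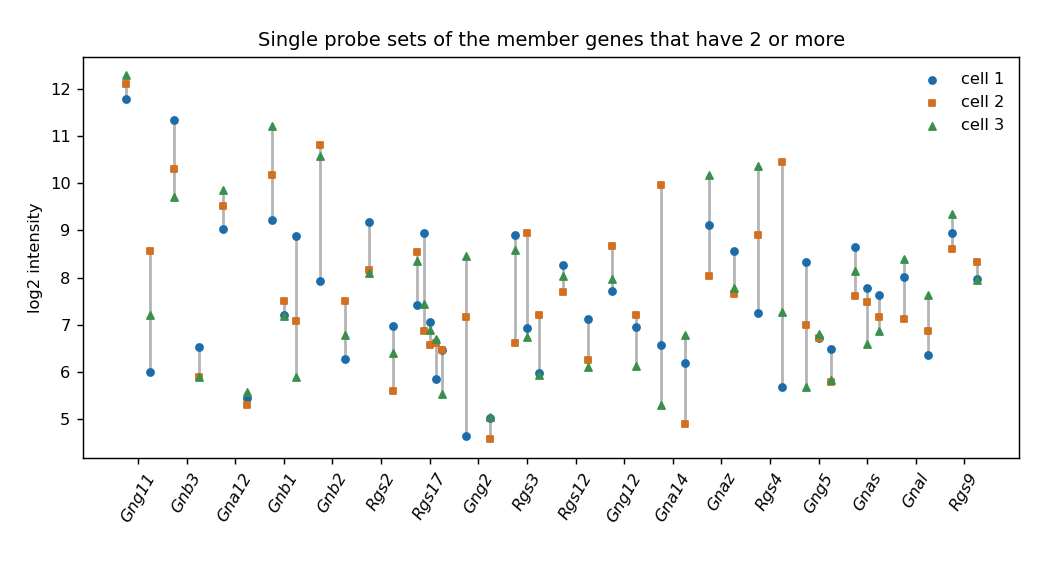
Single probe sets of the 18 member genes with 2 or more, as log2 intensity (vertical axis) in cell 1 (circles), cell 2 (squares) and cell 3 (triangles), joined by a grey line for each probe set and ordered by the gap between the brightest and the dimmest. The leftmost genes, Gng11, Gnb3 and Gna12, have probe sets whose means lie over 4 log2 apart and whose values do not overlap.

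Between somata, the members kept their order in part. Pearson's r across the 47 members after quantile normalisation was 0.66 for cells 2 and 3, against 0.68 over all genes. It was 0.40 for cells 1 and 2, against 0.47, and 0.34 for cells 1 and 3, against 0.44. Genes are not replicates, and the somata share the same probes, so these values describe the arrays. The range of a member between its highest and its lowest soma had a median of 27.9 percentile points, against 29.3 for all genes, and 11 members (23.4%) exceeded 50 points, against 20.8% of all genes. Of the 8 members with the widest range, Gnb1l and Gnat3 were high in cell 1 alone, Gnat1 and Rgs8 were highest in cell 2, and Rgs4 and Gnb4 were lowest in cell 1. The remaining 2 were Rgs7, which was highest in cell 1, and Rgs18, which was lowest in cell 3. Cells 1, 2 and 3 held the highest percentile of 15, 17 and 15 members and the lowest of 19, 8 and 20. The same counts over all genes are not given, so these cannot be read as particular to the members. The median difference between somata in log2 was 1.08 ± 0.09 times that of all genes (SD, 3 pairs of cells).

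**Figure D4:**
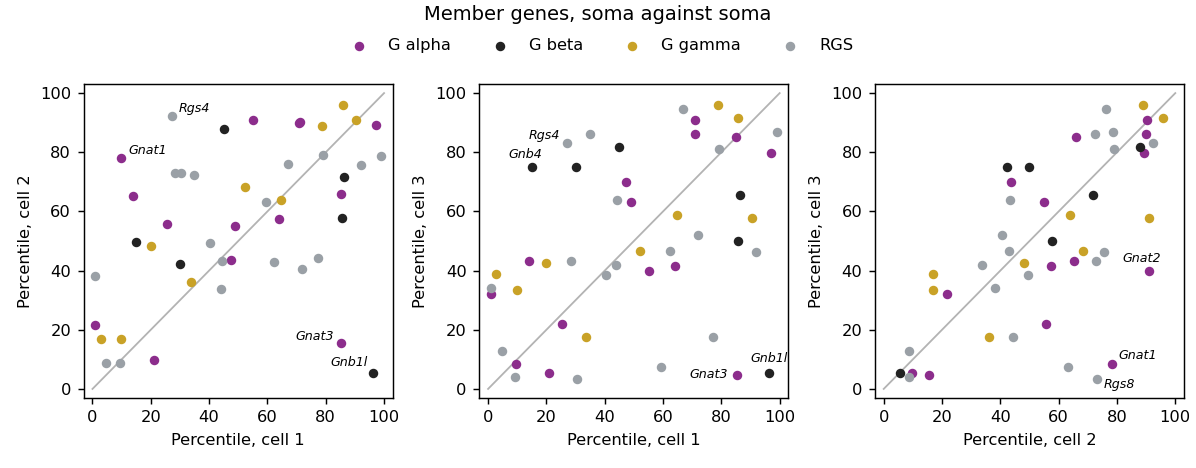
Percentile of the 47 members in each pair of somata, the lower-numbered cell on the horizontal and the other on the vertical axis, coloured by class, with the line of equal percentiles in grey. Points lie closer to the line for cells 2 and 3 (r = 0.66 after quantile normalisation) than for the pairs with cell 1 (0.40 and 0.34), and Gnb1l and Gnat3 lie far to the right of it in both panels that have cell 1 on the horizontal axis.

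Members known from neurons read lower as a group than members known from other tissues in 2 of 3 somata. The 21 neuronal members (such as Gnao1, Gnaq, Gng3, Rgs4 and Rgs14) had a median percentile of 44.0, 44.3 and 46.6 in cells 1, 2 and 3, and 1 of them, Gnao1 in cell 1, was above background. The 13 members of sensory, blood, vascular, germ or other peripheral cells had 59.4, 71.6 and 39.8, with Rgs22 above background in cell 1 and Gng11 in cells 2 and 3. Neuronal minus other-tissue members was thus -15.4, -27.3 and 6.85 points in cells 1, 2 and 3, a mean of -12.0 ± 17.3 (SD, n = 3 cells). With the brightest probe set of each gene the mean difference was 3.32, and when single probe sets were ranked it was -1.32. When 1 cell was left out it was -21.4 to -4.29. Of 8 general neuronal markers on the same arrays, the median percentile was 76.2, 77.5 and 86.1. The endothelial markers, given beside Gng11, had a median percentile of 65.6, 64.6 and 49.2 over 4 genes, of which Vwf was above background in all 3 cells, while the pericyte gene Rgs5 was among the lowest members.

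Of the genes on either side of the G protein in the pathway, few were above background, as was true of all genes on these arrays. Adenylyl cyclases, a family that holds the targets of Gs and Gi alpha, had a median percentile of 31.1, 50.3 and 25.3 in cells 1, 2 and 3. Their mean was 35.6 ± 13.1 (SD, n = 3 cells) over the 8 genes measured of 10 listed, with 0 above background in any soma. Adcy3, the cyclase of cilia, lay at 39.9, 92.9 and 84.4 and Adcy4 at 79.6, 61.8 and 71.7, while Adcy8, a calcium-stimulated cyclase of neurons, lay at 4.97, 30.0 and 5.80. Phospholipase C beta, the target of Gq alpha, reached 53.4 ± 8.40 over 4 genes. Plcb3 led them with 9.44, 11.46 and 9.46 log2 and was above background in cells 2 and 3, Plcb1, the main form in hippocampus, lay at 42.9, 61.2 and 57.0, and Plcb2 at 20.0, 12.2 and 26.7. The 4 GIRK channel genes, targets of beta-gamma, had 56.6 ± 10.4 (36.7 over those with 1 probe set), with Kcnj6 at 50.6, 71.8 and 68.6, Kcnj3 at 65.5, 53.7 and 62.7 and Kcnj9 at 16.6, 22.7 and 67.4.

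Of the 5 pathway lists, that of the genes that switch receptors off had the widest spread between somata. Receptor kinases and arrestins had a median percentile of 71.3, 50.1 and 32.3 in cells 1, 2 and 3 (10 genes), none above background. Grk6 lay at 72.5, 51.7 and 72.3 and Arr3, the cone arrestin, at 70.1, 81.4 and 55.7, whereas Grk5 lay at 82.8, 8.29 and 2.93. Of 22 other regulators of G proteins, whose median was 53.8 ± 8.82, Rap1gap (53.8, 91.4 and 90.7) and Gprin1, a partner of Go alpha in neurites (19.5, 73.8 and 94.9), were above background in cell 3. Gpsm3, which binds Gi alpha, lay at 28.8, 89.5 and 80.8, and Snx13, at 0.112, 2.02 and 47.3, had the lowest median. In total 1 of the 48 pathway genes measured outside the family was above background in cell 2 and 3 were in cell 3, with 0 in cell 1. Of all genes, 8.0%, 5.71% and 10.6% were above it in cells 1, 2 and 3.

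**Figure D5:**
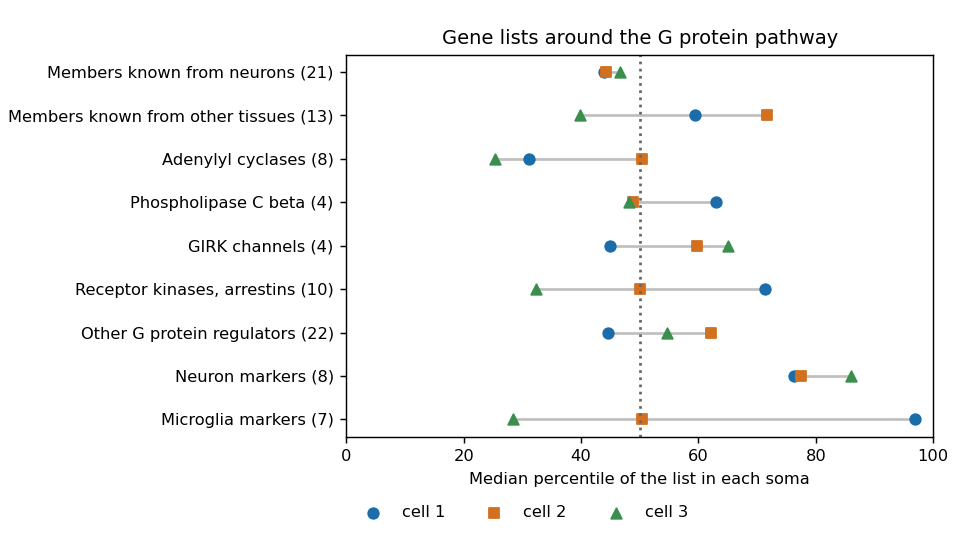
Median percentile of gene lists (rows, number of genes measured in brackets) in the 3 somata (circles for cell 1, squares for cell 2, triangles for cell 3), where the dotted line is the 50th percentile. The neuronal members stay between 44.0 and 46.6, the general neuron markers between 76.2 and 86.1, and the microglial markers and the receptor kinases with arrestins are highest in cell 1.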

How the data were processed

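Values were those of 3 Affymetrix rat expression arrays, 1 per soma, from RNA amplified in several rounds. The authors deposited log2 intensities per probe set, and the labels name RMA 2.0. The study's methods, written for dendrite pools and tissues, give an upper-decile summary followed by centring and scaling. The deposited values are not centred, with array medians of 7.23, 7.16 and 7.09. Many are tied: the 31099 probe sets took 2889, 2866 and 2090 distinct values in cells 1, 2 and 3. Genes with equal levels share a percentile. Detection calls and a genome build are not given in the sources used here.

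Of 31099 probe sets, 20832 carried 1 symbol in the platform annotation (which can be old), 436 several and 9831 none. All 47 member genes matched the RefSeq gene table (GRCr8) by gene number and kept their symbols. A gene took the median of its probe sets. No test was run, since an exact test over 3 cells of 1 group could not have reached significance. Tables were computed with pandas 2.3.3 and numpy 2.4.6 and tested on simulated data. Members and gene lists were chosen with earlier results of these data known. Every member could be named. For other pathway genes, the 2 highest and the lowest by median percentile of each list were named, with Gprin1 and the cell type markers chosen after their values were seen. Alternatives concerned the probe set summary, probe sets that can match several transcripts, what was ranked, the background, the scale, members taken by symbol only, and leaving out each cell.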

Additional observations from a re-analysis of the deposited data

How the results depend on the processing

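Taking each gene's brightest probe set, the median percentile was 61.8 for all members and 57.6 for RGS, and alpha minus gamma was 5.43, gamma minus RGS -3.21 and neuronal minus other-tissue members 3.32. In that setting 2 members were above background in all cells, and 5, 3 and 10 in cells 1, 2 and 3. With the mean of the probe sets gamma minus RGS was 2.155, and without probe sets that can match several transcripts alpha minus gamma was -5.53 and the median percentile of phospholipase C beta 63.3. Ranking single probe sets gave 9.38 for alpha minus gamma and -5.77 for gamma minus RGS. Counting single probe sets above background, and taking only genes with 1 probe set, were settings chosen after seeing the data. Counted singly, 2 probe sets were above background in all cells, and 5, 5 and 10 in cells 1, 2 and 3. Of all single-symbol probe sets, 2.84% were above it in all cells, and the share in each cell is not given. Genes with 1 probe set gave 49.4 for beta, 7.73 for alpha minus beta, -11.5 for beta minus gamma and 12.1 for gamma minus RGS, with 36.7 for the GIRK channels and 41.2 for the other regulators. At the 99th percentile of the background genes 0 members were above background in cells 1, 2 and 3, and with receptor genes alone as background genes 9 were in cell 2. Leaving out 1 cell gave 0 to 1 members above background in the other 2, with Gng11 the member without cell 1. No share of all genes in the same setting is given beside these counts of members, so they have no reference. In total 152 recomputed values moved by less than the spread between cells, or by 1.5 times or less for counts. Another 22 moved further and 7 changed sign. The spread is wide, so the 152 include beta minus RGS over genes with 1 probe set, 0.641 against 14.7 in the main setting. The cause of the changes was not tested.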
